A study of Mus musculus with 21 samples.

Results

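ARID1A peaks that carried no C/EBPα peak were a minority of the ARID1A sites mapped in adult mouse hepatocytes. Of 5726 peaks in the list of V5-tagged ARID1A, 982 (17.2%) overlapped by not even 1 bp any peak in the 4 C/EBPα lists, of which 2 came from Arid1a KO hepatocytes and 2 from Arid1a WT hepatocytes. The 982 peaks were chosen by the absence of this overlap, a measured value, so their lack of C/EBPα is not a finding. They are called C/EBPα-free below, and the remaining 4744 are called the other ARID1A peaks. The name refers to the lists only, because peaks are numbered in their names and only between 40.01% and 40.07% of the numbers up to the highest one are present in each C/EBPα and V5 list. A C/EBPα-free peak is therefore one at which no C/EBPα peak was called and kept.

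All samples came from perfused primary hepatocytes of mice at postnatal day 90, on a mixed background of C57/B6 and 129. KO mice carried Arid1a Fl/Fl with Alb-cre, in which the albumin promoter drives Cre in hepatocytes and other albumin-expressing liver cells, and WT mice carried the same floxed alleles without Cre. C/EBPα was mapped in 2 KO and 2 WT libraries, and dimethylated lysine 4 of histone H3 (H3K4me2) in 3 KO and 3 WT libraries. ARID1A was mapped with an antibody against V5 in 1 library from V5-Arid1a mice, so its peaks have no replicate and no KO counterpart. The labels do not say that libraries of a group came from separate animals, so the p-values below measure only the spread between these libraries, which may be technical. Loss of Arid1a itself could not be verified, since peak lists hold no expression data.

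ARID1A is a DNA-binding subunit of the canonical BAF form of the SWI/SNF complex, which uses ATP to move or evict nucleosomes and is found mainly at enhancers and promoters. C/EBPα is a bZIP transcription factor that is abundant in differentiated hepatocytes and is needed for much of their metabolic programme. H3K4me2 marks the nucleosomes that flank active or primed promoters and enhancers.

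The promoter sequences that follow are those of 5 genes, taken from lists for liver functions and regulators, at which a C/EBPα-free peak within 1 kb of a gene end also covered a RefSeq promoter. Each is the RefSeq promoter of build GRCm38.p6, from 250 bases before to 50 bases after the start, written 5′ to 3′ on the strand of the gene. Capitals mark matches to any of 13 short motifs on either strand. Bhmt (betaine-homocysteine methyltransferase) is at chr13:93637709-93638008 on the minus strand, Gstm1 (a glutathione transferase) at chr3:108017769-108018068 on the minus strand, Ppara (the fatty acid-sensing nuclear receptor) at chr15:85735526-85735825 on the plus strand, Stat3 (the transcription factor of interleukin-6 signalling) at chr11:100939491-100939790 on the minus strand, and Tdo2 (tryptophan dioxygenase) at chr3:81975679-81975978 on the minus strand.
Bhmt: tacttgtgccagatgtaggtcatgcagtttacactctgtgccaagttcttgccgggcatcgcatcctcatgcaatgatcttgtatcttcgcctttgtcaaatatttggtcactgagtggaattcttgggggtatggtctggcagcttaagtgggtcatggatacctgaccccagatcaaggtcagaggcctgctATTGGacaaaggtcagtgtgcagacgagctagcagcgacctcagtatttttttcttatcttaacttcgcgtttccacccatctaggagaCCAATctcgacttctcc
Gstm1: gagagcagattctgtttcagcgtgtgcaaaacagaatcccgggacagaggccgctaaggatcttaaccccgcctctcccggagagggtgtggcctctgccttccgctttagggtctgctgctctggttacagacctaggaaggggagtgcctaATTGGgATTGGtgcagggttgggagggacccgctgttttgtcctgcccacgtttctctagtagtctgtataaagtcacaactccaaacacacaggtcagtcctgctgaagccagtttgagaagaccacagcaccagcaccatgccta
Ppara: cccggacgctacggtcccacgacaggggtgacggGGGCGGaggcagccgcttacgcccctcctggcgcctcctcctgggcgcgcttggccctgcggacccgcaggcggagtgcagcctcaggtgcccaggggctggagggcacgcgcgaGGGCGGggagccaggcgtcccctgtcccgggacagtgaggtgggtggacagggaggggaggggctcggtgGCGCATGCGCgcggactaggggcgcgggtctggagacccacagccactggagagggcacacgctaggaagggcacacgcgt
Stat3: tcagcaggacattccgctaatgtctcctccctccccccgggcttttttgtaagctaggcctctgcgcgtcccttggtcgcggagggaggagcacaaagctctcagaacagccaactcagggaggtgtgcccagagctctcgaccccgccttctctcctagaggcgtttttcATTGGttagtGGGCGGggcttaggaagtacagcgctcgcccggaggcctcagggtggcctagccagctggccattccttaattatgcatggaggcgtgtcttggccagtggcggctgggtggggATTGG
Tdo2: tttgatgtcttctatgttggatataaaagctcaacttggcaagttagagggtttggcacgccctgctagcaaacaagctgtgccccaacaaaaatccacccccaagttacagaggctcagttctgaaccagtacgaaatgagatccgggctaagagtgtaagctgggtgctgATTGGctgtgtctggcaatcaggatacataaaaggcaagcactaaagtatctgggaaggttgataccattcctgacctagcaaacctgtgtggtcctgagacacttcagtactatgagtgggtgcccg

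None of these 5 promoters held the C/EBP letters TTGCNNAA. The capitals are CCAAT boxes (CCAAT, read as ATTGG on the other strand), GC boxes (GGGCGG) and, in Ppara, the NRF1 letters GCGCATGC, which were found at bases 220 to 227 and, on the other strand, at bases 222 to 229, so that both matches overlap. No pair of different motifs overlapped in them. The peak covered all 300 bases of the Ppara promoter, 277 of Tdo2, 199 of Gstm1, 177 of Stat3 and 148 of Bhmt. In Stat3 these were bases 1 to 177. Its GC box at bases 182 to 187 and its CCAAT box at bases 296 to 300 lay outside the peak. As a contrast chosen after the values were seen, 2 of the 4 promoters of plasma protein genes under the other ARID1A peaks are shown next. They were picked because they held the C/EBP letters, with the widest overlap with the peak first. Ahsg, the gene of fetuin-A, is at chr16:22891765-22892064 on the plus strand, and C3, the gene of the central complement component, is at chr17:57228087-57228386 on the minus strand.
Ahsg: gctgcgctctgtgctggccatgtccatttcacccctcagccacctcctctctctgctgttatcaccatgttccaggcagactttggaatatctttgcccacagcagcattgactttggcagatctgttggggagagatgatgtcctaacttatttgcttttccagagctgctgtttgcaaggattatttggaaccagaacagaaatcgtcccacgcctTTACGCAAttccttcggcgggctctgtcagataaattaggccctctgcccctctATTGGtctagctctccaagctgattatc
C3: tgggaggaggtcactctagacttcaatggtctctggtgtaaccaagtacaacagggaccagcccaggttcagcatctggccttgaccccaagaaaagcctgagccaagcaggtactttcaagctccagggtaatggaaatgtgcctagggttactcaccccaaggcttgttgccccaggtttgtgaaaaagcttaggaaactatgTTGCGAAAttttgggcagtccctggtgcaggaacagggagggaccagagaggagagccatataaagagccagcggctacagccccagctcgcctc

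Both held the C/EBP letters by that choice, Ahsg at bases 219 to 226 and C3 at bases 206 to 213, so their match is not a finding. The counts over all RefSeq promoters of protein-coding genes did not depend on the choice of this pair. A C/EBPα-free peak lay on 45 promoters of 43 genes, and another ARID1A peak on 145 promoters of 137 genes. An overlap of 1 bp was enough, and letters were sought in all 300 bases, so a match can lie outside the peak. The smallest overlap among the 45 was 3 bp, at As3mt. The C/EBP letters were in 2 of 45 promoters under C/EBPα-free peaks (4.44%, exact binomial 95% interval 0.543 to 15.1%), in 39 of 145 under the other ARID1A peaks (26.9%, 19.9 to 34.9%) and in 10.18% of all 21238 promoters. The rule chose the peaks by C/EBPα itself, so this difference is a description. The 2 promoters with a match belonged to Gm35078 and Aldh1l1, the gene of 10-formyltetrahydrofolate dehydrogenase.

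Other motifs were set side by side in the same promoters, with no test. The forkhead letters TGTTTAC were in 6 of 45 promoters under C/EBPα-free peaks (13.3%, 5.05 to 26.8%), in 5.52% under the other ARID1A peaks and in 2.999% of all promoters. The 6 were those of Apoa2, an apolipoprotein of high-density lipoprotein, As3mt, Hibadh, Car5a, Dhx8 and Bahcc1. The TEAD letters CATTCCA were in 5 of 45 (11.1%, 3.71 to 24.1%), against 4.14% under the other ARID1A peaks and 3.81% of all promoters. GC boxes were in 57.8%, against 38.6% under the other ARID1A peaks and 46.2% of all promoters, and CCAAT boxes in 48.9%, against 37.9% and 38.2%. The HNF1 letters GTTAATNAT were in none of the 45 (interval up to 7.87%) and in 6.90% of the 145, with 0.720% in all promoters. The HNF4 letters CAAAGTCCA were in none of the 45 and in 3.45% of the 145, with 0.452% in all promoters. The PAR bZIP letters TTATGTAA were likewise in none of the 45 and in 4.83% of the 145, with 0.890% in all promoters. The shares for AP-1 (TGANTCA) were 4.44% under C/EBPα-free peaks and 8.28% under the other ARID1A peaks, for CRE (TGACGTCA) 2.22% and 2.76%, for the E-box CACGTG 11.1% and 12.4%, for ETS (CCGGAAG) 8.89% and 4.14% and for NRF1 4.44% and 3.45%. In all promoters these were 6.99%, 2.24%, 7.84%, 11.6% and 3.52%. Promoters under C/EBPα-free peaks had a median GC content of 60% (53.3% under the other ARID1A peaks, 56.3% in all) and a ratio of observed to predicted CpG of 0.606 (0.370 under the other ARID1A peaks, 0.567 in all). How far base composition sets the motif shares was not tested.

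**Figure D1:**
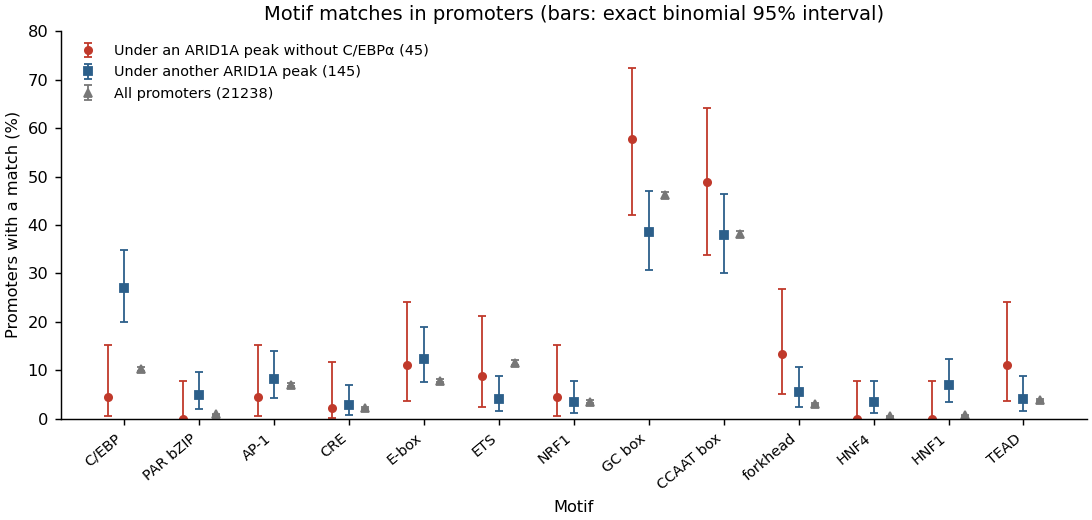
Share of promoters with a match (y axis, %) to each of 13 motifs (x axis), for promoters under a C/EBPα-free ARID1A peak (red, 45), under another ARID1A peak (blue, 145) and all RefSeq promoters (grey, 21238), with exact binomial 95% intervals. The C/EBP letters were in 4.44%, 26.9% and 10.18%, and most other red intervals span the blue values.

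How far the C/EBPα-free peaks lay from C/EBPα varied widely. The gap to the nearest C/EBPα peak of any list ran from 31 bp to 1344420 bp, with a median of 4906.5 bp. The nearest C/EBPα peak was within 1 kb of 156 of them (15.9%) and within 10 kb of 653 (66.5%), and it was beyond 100 kb for 19. At the edge of the rule, the 5 smallest gaps were 31 bp at Hint3, 38 bp at Adh5, 56 bp at Fnip2, 66 bp at the peak nearest to Cebpa and 67 bp at Slc2a2, the gene of the liver glucose transporter GLUT2. Just outside the rule, overlap was taken from the C/EBPα list that covered the most bases of the peak. The smallest such overlaps were 42 bp at Pptc7, 55 bp at Trf, the transferrin gene, 96 bp at Mctp2, 104 bp at Rbpms and 111 bp at Ski. The peak nearest to Cebpa itself lay 21938 bp from that gene, at chr7:35143867-35144234 (mm10), and overlapped an H3K4me2 peak in all 6 lists. Most of the other ARID1A peaks were far from this edge. Of the 4744, 3609 overlapped a C/EBPα peak in all 4 lists, 404 in 3 lists, 412 in 2 lists and 319 in 1 list. By genotype, 67 of all 5726 ARID1A peaks overlapped C/EBPα in both KO lists and no WT list, and 197 in both WT lists and no KO list. The C/EBPα lists were of unequal length, with 16178 and 17781 peaks in KO and 17733 and 23646 in WT. ARID1A peaks without C/EBPα numbered 1666 and 1565 in the KO lists and 1676 and 1206 in the WT lists. The 2 genotype counts are therefore not read as a difference between genotypes.

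The C/EBPα-free peaks were narrower by median than the rest. Their median width was 271 bp (quartiles 228 and 324 bp, highest 1275 bp), against 308 bp (252 and 385 bp, highest 3949 bp) for the other ARID1A peaks. Among ARID1A peaks of 167 to 235 bp, 25.7% were C/EBPα-free, and the share was 20.6%, 18.6% and 11.5% in the next 3 width strata and 9.50% at 398 bp and above. A narrow peak has fewer bases with which to overlap another, and how far this enters the shares was not tested. With overlap judged at the midpoint of the ARID1A peak alone, the shares without C/EBPα were 25.8% in the narrowest stratum and 9.93% in the widest. The V5 list gives no score, so width was the only measure of peak size, and how far narrow peaks of low confidence enter the C/EBPα-free set was not tested.

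Gene bodies held the largest share of both sets, and the sets differed by a few percentage points in their position. Of the 982, 325 lay outside protein-coding genes (33.1%, exact binomial 95% interval 30.2 to 36.1%), against 1890 of 4744 (39.8%, 38.4 to 41.2%). In gene bodies, more than 1 kb from both gene ends, lay 561 (57.1%, 54.0 to 60.2%), against 2475 (52.2%, 50.7 to 53.6%). Within 1 kb of a gene end, start or 3′ end, lay 96 (9.78%, 7.99 to 11.8%), against 379 (7.99%, 7.23 to 8.80%), and these intervals overlap. Within 1 kb of a RefSeq start lay 71 (7.23%, 5.69 to 9.03%), against 237 (4.996%, 4.39 to 5.65%). RefSeq starts can lie inside a gene, so some of these peaks, such as that at Hint3, count in gene bodies above. At gene ends with no RefSeq start within 1 kb the shares were 4.48% and 4.22%. A further ARID1A peak within 10 kb was found for 33.8% of the C/EBPα-free peaks and for 34.3% of the others. All come from 1 library and peaks are not replicates, so the intervals cover counting of peaks only and no test was made.

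**Figure D2:**
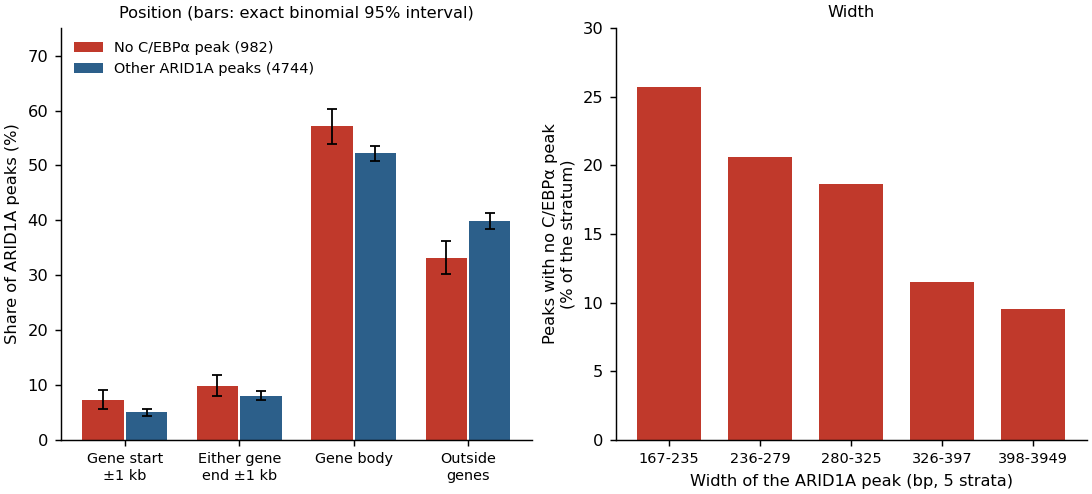
Left, share of C/EBPα-free (red) and other (blue) ARID1A peaks (y axis, %) at gene starts, at either gene end, in gene bodies and outside genes, with exact binomial 95% intervals. Starts include RefSeq starts inside genes, so a peak at a start counts also among the gene ends or the gene bodies. Right, share of ARID1A peaks that were C/EBPα-free (y axis, %) in 5 strata of peak width (x axis, bp), which was 25.7% in the narrowest and 9.50% in the widest.

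At the level of genes, 103 of 21887 protein-coding genes (0.471%) had a C/EBPα-free peak within 1 kb of an end, 394 (1.80%) had another ARID1A peak there, and 9 had both. Lists of genes for liver functions, regulators and cell types held 468 genes. Of these, 9 (1.92%) had a C/EBPα-free peak at an end and 54 had another ARID1A peak there. The 9 were Ppara, Stat3, Bhmt, Tdo2, Gstm1, Apoe, Irs2, Hes1 and Bhlhe40. Apoe encodes an apolipoprotein that clears remnant particles, Irs2 an adaptor of the insulin receptor, Hes1 a repressor downstream of Notch and Bhlhe40 a repressor of clock genes. The list for plasma proteins, complement and coagulation had 0 of its 35 genes among them, and 11 of the 35 had another ARID1A peak at an end. Beside 9 of 468 listed genes, 0 of 35 is near the background and is not read as a result.

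At the Ppara promoter the C/EBPα-free peak was 872 bp wide, at chr15:85734987-85735858, and lay 1936 bp from the nearest C/EBPα peak. The H3K4me2 peak over it stood at the 60.5, 79.4 and 89.2 percentile of −log10 q within its list in KO replicates 1, 2 and 3, and at the 69.1, 84.9 and 86.8 percentile in WT replicates 1, 2 and 3. The KO and WT values overlap. A further C/EBPα-free peak in the gene body, at chr15:85776768-85777235, was also marked in all 6 lists, and one at chr15:85742736-85743047 in 5, with KO replicate 3 as the exception. Ppara thus held 3 C/EBPα-free peaks among the 5 ARID1A peaks within 10 kb of the gene.

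The Stat3 peak was 446 bp wide, at chr11:100939614-100940059, and the H3K4me2 percentiles over it were 83.6, 81.8 and 59.1 in KO and 70.1, 86.1 and 90.7 in WT. The KO and WT ranges overlap. The Apoe peak, at chr7:19700934-19701228, had percentiles of 76.4, 84.7 and 80.6 in KO and 75.7, 89.9 and 63.6 in WT, which also overlap. The peaks at Bhmt, Tdo2, Irs2 and Bhlhe40 were marked in 5 of 6 lists, and KO replicate 1, the list with the fewest H3K4me2 peaks, lacked the mark at each of these 4. At Bhmt, whose enzyme passes a methyl group from betaine to homocysteine, the percentiles were 75.9 and 88.3 in KO replicates 2 and 3 and 73.0, 82.3 and 76.8 in WT. At Tdo2, whose enzyme opens the ring of tryptophan, they were 72.1 and 88.1 in the same KO replicates and 61.0, 76.9 and 82.7 in WT. At Gstm1 KO replicate 3 lacked a peak, and at Hes1 WT replicate 3 did. Gstm1 belongs to a family of similar neighbouring genes, between which short reads can be hard to place.

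By nearest gene, 849 of all protein-coding genes (3.88%) were nearest to a C/EBPα-free peak and 2841 (13.0%) to another ARID1A peak. Among the 468 listed genes these counts were 65 (13.9%) and 172. The lists differed in how the counts were split, which is given here as counts only, since the nearest gene need not be the gene a site acts on. Of 20 genes of hepatocyte transcription factors, 9 were nearest to a C/EBPα-free peak and 13 to another ARID1A peak. The 9 were Cebpa, Cebpb, Foxa2, Nr2f2, Nr5a2, Onecut1, Onecut2, Rxra and Tbx3, and Cebpb was the nearest gene of 3 such peaks at 29172 to 91107 bp, marked in 0, 3 and 2 lists. The Foxa2 peak at chr2:148024279-148024563 lay 18313 bp from that pioneer factor gene and was marked in all 6 lists, while a further one 99944 bp away was marked in 3. Of 17 genes of gluconeogenesis and glycogen, the counts were 8 and 15. They included G6pc, the glucose-6-phosphatase of glucose release, with a peak 11523 bp away, and Ppargc1a, a coactivator of the fasting response, with one 62756 bp away, both marked in all 6 lists. The peaks at Foxo1, Ppp1r3b and Slc2a2 were marked in 3 lists, that at Ppp1r3c in 2, that at Irs2 in 5 and both at Pcx in 6. Of 21 immediate early and regeneration genes the counts were 7 and 11. Fos, Fosb, Atf3, Ier2 and Socs3 each had a C/EBPα-free peak outside the gene, and each was marked in all 6 lists.

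Clock genes gave 6 and 8 of 17, among them Per1, with a peak at chr11:69096922-69097225 in its body, and Tef, the gene of a PAR bZIP factor, with a peak 1000 bp wide in its body. The Tef peak also overlapped, by 8 bp, a RefSeq promoter of Tef that lies inside the gene. The peak in Cdkn1a, the gene of the cell cycle inhibitor p21, was at chr17:29094555-29094793 and marked in all 6 lists. Genes of SWI/SNF subunits gave 3 and 4 of 21, and the 3 were Arid1b, Pbrm1 and Smarca2. Plasma protein genes gave 2 and 21 of 35, with C/EBPα-free peaks in the bodies of F5 and Plg. Bile acid genes gave 1 and 12 of 16, with Nr0b2 as the 1. Over all protein-coding genes the shares were 3.88% and 13.0%, so the C/EBPα-free counts of both lists are not read as low. Lipid and lipoprotein genes gave 5 and 17 of 25, cytochrome P450 and xenobiotic genes 5 and 16 of 26, urea and amino acid genes 5 and 13 of 20, and iron-handling genes 1 and 8 of 16. Cell cycle and replication genes gave 1 and 3 of 30, and ribosomal protein genes 1 and 3 of 27. Hippo and Wnt zonation genes gave 4 and 6 of 20, and genes of the unfolded protein response and of antioxidant defence 2 and 4 of 15 and 2 and 8 of 15. No gene of the housekeeping, fetal, endothelial, macrophage and leukocyte, stellate, biliary or neuronal lists was nearest to a C/EBPα-free peak. These lists held 18, 14, 16, 20, 17, 12 and 13 genes. Of them 2, 2, 3, 1, 1, 0 and 1 were nearest to another ARID1A peak. Beside 3.88% of all protein-coding genes for C/EBPα-free peaks, no result is read from these small lists.

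Of the 10 widest C/EBPα-free peaks, 3 lay at 1600014C10Rik, with widths of 1275, 872 and 684 bp, and the others were nearest to Dnajc18 (1242 bp), Tef (1000 bp), the kinase gene Pim3 (880 bp), Ppara (872 bp), the transcription factor gene Nfib (728 bp), Cyp2b10, a drug-inducible cytochrome P450 (590 bp), and Slc25a33 (582 bp). The gene 1600014C10Rik, 14352 bp long on chromosome 7, had 7 C/EBPα-free peaks among the 10 ARID1A peaks within 10 kb. Of the 849 genes with a C/EBPα-free peak within 10 kb, 756 had 1 and 83 had 2. After 1600014C10Rik came Col27a1, a collagen gene, with 4 of 10, then 8 genes with 3 each, of which Sntg2, Zmiz1 and Cab39l come first by chromosome. The H3K4me2 peak over the 1275 bp site at 1600014C10Rik stood at the 79.4, 93.3 and 95.2 percentile of its list in KO replicates 1, 2 and 3, and at 76.4, 100 and 85.7 in WT replicates 1, 2 and 3. At the 7 sites around this gene the mark was present in 6, 6, 3, 2, 2, 2 and 0 lists. Among gene end peaks marked in all 6 lists, those with the strongest H3K4me2 were at Cenpu, a centromere protein gene, with a mean percentile of 96.9 over the 6 lists, Bahcc1 with 95.7, Tmem131l with 92.0 at each of 2 peaks, Fam160b1 with 92.0, 1600014C10Rik with 88.3, Dock5 with 86.8, Upb1, of pyrimidine breakdown, with 84.9, Zfp1 with 84.8 and Tmem220 with 84.5.

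H3K4me2 was not used to choose the peaks. The H3K4me2 lists held 24908, 54544 and 175797 peaks in KO and 34849, 61246 and 49802 in WT, and covered 28.0, 85.6 and 102 Mb in KO and 48.4, 91.9 and 51.7 Mb in WT. The 5 hepatocyte markers (Alb, Ttr, Apoa1, Cps1 and Cyp2e1) had H3K4me2 at a gene end in all 6 lists. Of all 21887 protein-coding genes, 11544, 14208 and 14365 had it in KO replicates 1, 2 and 3 and 12513, 14309 and 12524 in WT. Of 16 endothelial markers, 3, 15 and 7 had it in KO replicates 1, 2 and 3 and 6, 15 and 4 in WT, so both replicates 2 stood apart for these markers. Of 17 stellate and fibroblast markers the counts were 2, 10 and 4 in KO and 4, 9 and 5 in WT, of 20 macrophage and leukocyte markers 4, 5 and 8 in KO and 3, 6 and 3 in WT, of 12 biliary markers 5, 8 and 7 in KO and 6, 8 and 6 in WT, and of 13 neuronal markers 1, 6 and 4 in KO and 5, 7 and 6 in WT. No marker gene had a C/EBPα-free peak at an end, which is near the 0.471% of all protein-coding genes that did.

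More C/EBPα-free peaks carried H3K4me2 than lacked it in 5 of 6 lists, all but KO replicate 1. In KO replicates 1, 2 and 3, 40.1% (exact binomial 95% interval 37.0 to 43.3%), 83.9% (81.5 to 86.2%) and 54.8% (51.6 to 57.9%) of them overlapped an H3K4me2 peak, and in WT replicates 1, 2 and 3, 73.8% (71.0 to 76.6%), 88.5% (86.3 to 90.4%) and 60.9% (57.8 to 63.96%). KO replicate 2 lay above 2 of the WT lists, so the genotypes overlapped. The mean was 59.6 ± 22.3% in KO and 74.4 ± 13.8% in WT (SD, n = 3 each), a difference of -14.8 points with p = 0.4 in a two-sided exact permutation test over libraries (0.48 after Benjamini-Hochberg adjustment over 6 tests), where 3 against 3 libraries cannot go below 0.1. Without replicate 2 of both genotypes, left out after the data were seen, the difference was -19.9 points. KO replicate 1 was lowest in share, in number of peaks and in covered length, and replicates 2 of both genotypes had the highest shares, while KO replicate 3, with the most peaks and the longest covered length, had the second lowest share. The part of cell composition or depth in the difference was not tested. In such bulk samples, fewer cells with the mark and less of it per cell cannot be told apart.

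Set against the other ARID1A peaks in the same lists, the C/EBPα-free peaks were not shown to differ in how often they were marked. The other ARID1A peaks had shares of 42.0%, 82.7% and 52.7% in KO and 73.4%, 88.9% and 62.9% in WT, so the C/EBPα-free share was the higher one in 3 of 6 lists. The mean difference, C/EBPα-free minus other, was -0.0927 points (range over lists -2.05 to 2.13), with p = 0.875 in a two-sided exact sign-flip permutation test over the 6 lists (smallest possible 0.03125, adjusted p = 0.875). Without replicate 2 of both genotypes it was -0.344 points. Since narrow peaks were marked less often, the comparison was repeated within 5 strata of width, and there the difference was 2.18 points (0.412 to 4.16, higher in 6 of 6 lists, exact permutation p = 0.03125, not adjusted). Within strata, the mean share over the 6 lists was 59.7% at C/EBPα-free and 59.9% at other peaks of 167 to 235 bp, and 78.8% and 75.2% at those of 398 bp and more. The sign thus turned on whether width was held fixed. It also turned when KO replicate 1 (0.221 points) or KO replicate 2 (0.250) of C/EBPα, or KO replicate 1 (0.262) or WT replicate 3 (0.298) of H3K4me2, was left out. Without WT replicate 2 of C/EBPα, the longest C/EBPα list, the sign held, the C/EBPα-free set grew to 1173 peaks and the difference was -2.47 points (exact permutation p = 0.03125).

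The other ARID1A peaks were not alike among themselves. This split was added after the data were seen. Peaks with C/EBPα in 1 to 3 of the 4 lists (1135 peaks, median width 286 bp) were marked in 32.1%, 72.9% and 46.8% in KO and 65.6%, 82.6% and 56.7% in WT, below the C/EBPα-free peaks in every list. The C/EBPα-free peaks exceeded them by 7.56 points (4.16 to 11.0, 6 of 6 lists), with an exact permutation p of 0.03125, the smallest possible, and 0.1875 after adjustment over 6 tests. Within width strata the excess was 8.71 points (5.18 to 12.3). Peaks with C/EBPα in all 4 lists (3609, median width 315 bp) were marked in 45.1%, 85.8% and 54.5% in KO and 75.9%, 90.9% and 64.9% in WT. The mean difference of the C/EBPα-free peaks from them was -2.50 points (-4.99 to 0.284, higher in 1 of 6 lists, exact permutation p = 0.0625, adjusted p = 0.1875), and -0.201 points within width strata. Neither comparison passed the adjusted threshold of 0.05. As a description, H3K4me2 over ARID1A peaks was lowest, in each of the 6 lists, at the peaks where the C/EBPα lists disagreed. All 6 lists were read over the same peaks, from 1 V5 library and the same 4 C/EBPα lists. Their agreement does not cover the choice of peaks.

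**Figure D3:**
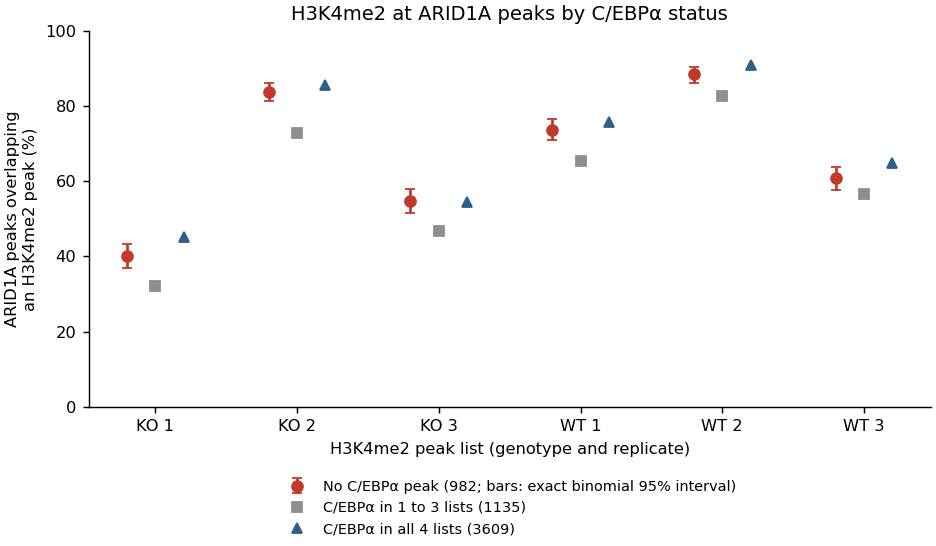
Share of ARID1A peaks that overlapped an H3K4me2 peak (y axis, %) in each of the 6 H3K4me2 lists (x axis, KO then WT by replicate), for peaks with no C/EBPα peak (red circles with exact binomial 95% intervals, 982), with C/EBPα in 1 to 3 lists (grey squares, 1135) and in all 4 lists (blue triangles, 3609). The grey squares are the lowest in every list, and red circles and blue triangles differ by -4.99 to 0.284 points.

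The genotype difference was not shown to be another one at C/EBPα-free peaks than at the rest. C/EBPα-free minus other was 0.50 ± 2.10 points in KO and -0.685 ± 1.25 points in WT (SD, n = 3 each), which differ by 1.19 points (exact permutation p = 0.4, adjusted p = 0.48). Where a peak was marked, its H3K4me2 peak ranked at a median percentile of 58.6 at C/EBPα-free peaks and 57.6 at other ARID1A peaks, as means over the lists. The difference of 0.942 percentile points (-1.07 to 4.01, higher in 5 of 6 lists) had an exact permutation p of 0.21875 (adjusted p = 0.4375).

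Around the peak midpoint the mark was concentrated and fell off within a few kilobases. At the midpoint of C/EBPα-free peaks, 32.1%, 80.1% and 43.2% lay inside an H3K4me2 peak in KO and 66.0%, 84.7% and 52.1% in WT. At 5 kb on both sides these shares were 7.28%, 21.2% and 15.6% in KO and 14.3%, 23.5% and 13.8% in WT. At the other ARID1A peaks the midpoint shares were 32.0%, 77.9% and 41.0% in KO and 63.7%, 84.5% and 52.3% in WT. The profiles of both sets lay close together in all 6 lists.

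**Figure D4:**
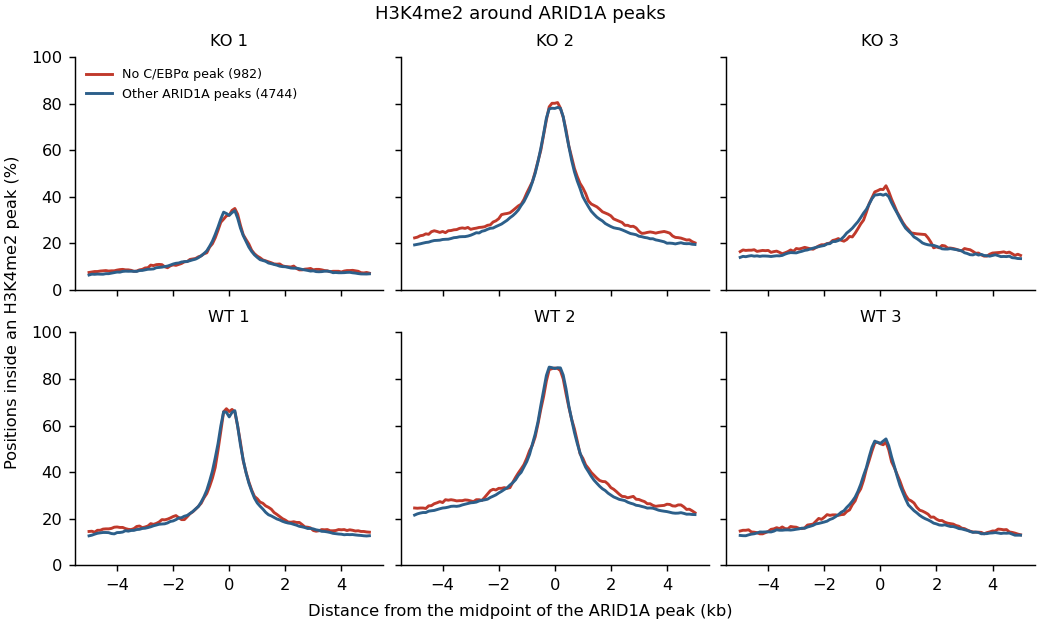
Share of positions inside an H3K4me2 peak (y axis, %) by distance from the midpoint of the ARID1A peak (x axis, kb) in each H3K4me2 list, for C/EBPα-free (red, 982) and other (blue, 4744) ARID1A peaks. In WT replicate 2, 84.7% of C/EBPα-free midpoints and 23.5% of positions at 5 kb were inside a peak.

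Marking varied with position and with the distance from C/EBPα. At gene ends 57.3%, 91.7% and 63.5% of C/EBPα-free peaks were marked in KO and 85.4%, 92.7% and 72.9% in WT, and outside genes 33.5%, 78.8% and 50.8% in KO and 68.3%, 84.0% and 56.6% in WT. Gene ends were higher in all 6 lists. Averaged over the 6 lists, 77.2% of the 156 C/EBPα-free peaks within 1 kb of a C/EBPα peak were marked. The average was 67.3% of the 338 at 1 to 5 kb, 68.7% of the 159 at 5 to 10 kb, 62.7% of the 310 at 10 to 100 kb and 33.3% of the 19 beyond 100 kb. The last bin holds few peaks. Gene position also varied over these bins, with 14.7%, 10.4%, 7.55%, 8.06% and 5.26% of the peaks at gene ends. Distance was not separated from position. H3K4me2 peaks are broad and can reach a C/EBPα site nearby. Of the marked C/EBPα-free peaks, 21.3%, 34.8% and 16.7% in KO and 28.4%, 36.02% and 25.6% in WT lay under an H3K4me2 peak that also overlapped a C/EBPα peak.

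**Figure D5:**
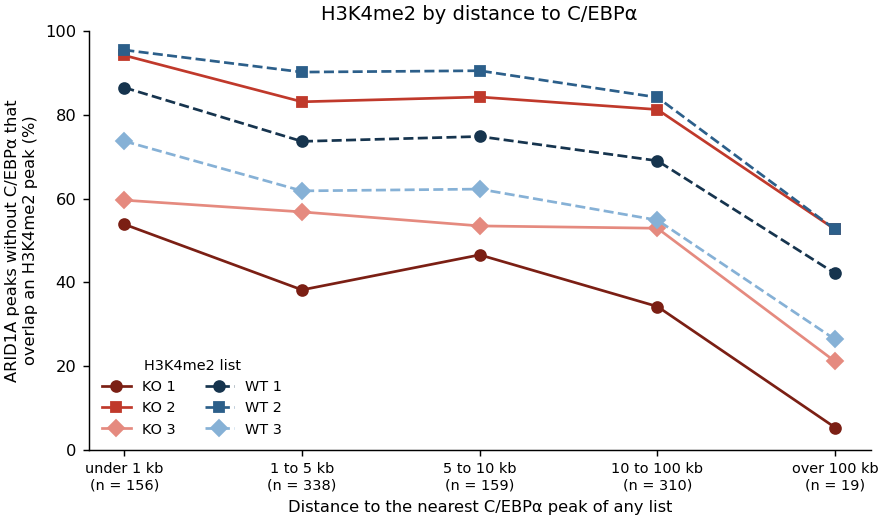
Share of C/EBPα-free ARID1A peaks that overlapped an H3K4me2 peak (y axis, %) by distance to the nearest C/EBPα peak (x axis, 5 bins with their number of peaks), in the KO (solid) and WT (dashed) lists. All 6 lists are lowest in the bin beyond 100 kb, which holds 19 peaks.

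Peak by peak, 231 C/EBPα-free peaks (23.5%) were marked in all 6 lists, beside 23.8% of all ARID1A peaks, and 45 (4.58%) in none, against 218 other ARID1A peaks (4.60%). H3K4me2 in each of the 3 WT lists but in none of the KO lists was found at 11 C/EBPα-free peaks (1.12%), beside 1.34% of all ARID1A peaks, and the reverse at 0, beside 0.00%. These shares are at the background. The count of 11 rested on KO replicate 2. Without that list it was 88 (8.96%, beside 9.12% of all ARID1A peaks), and without replicate 2 of both genotypes it was 93 (9.47%, beside 9.57%). Without WT replicate 1 it was 23 (2.34%, beside 2.48%) and without WT replicate 3 it was 21 (2.14%, beside 2.48%). The 5 with the highest WT percentiles were nearest to Fis1, of mitochondrial fission, Crybg1, Chac1, of glutathione breakdown, Gcgr, the glucagon receptor gene, and the kinase gene Pim1. The Gcgr peak, at chr11:120539336-120539556, lay 346 bp from the gene, and its H3K4me2 percentiles were 10.1, 45.8 and 54.9 in WT replicates 1, 2 and 3. The Fis1 peak had 18.7, 83.7 and 52.6. The 5 widest C/EBPα-free peaks with no mark in any list were nearest to Tmem50a (544 bp wide), Cdk8, of the Mediator kinase module (494 bp), Axin2, a negative regulator of Wnt signalling (452 bp), Baiap2l1 (407 bp) and Alg9, of N-glycan assembly (367 bp). Of these only the Tmem50a peak lay within 1 kb of a gene end.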

How the data were processed

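Peak lists from chromatin immunoprecipitation with sequencing were analysed for 11 of 21 samples, and the remaining 10, which are inputs, were not analysed here. Per the submitters' processing notes the build was mm10 and the tools were MACS2 2.0.10.20131216, HOMER, Bowtie2 2.2.3 and Picard, with roles and order not given in the sources used here. The deposited C/EBPα and V5 lists hold coordinates and names only. The deposited H3K4me2 broad peaks hold the authors' score, fold over background (a ratio), −log10 p and −log10 q, and the lowest −log10 q was 1.00 to 1.02. These values depend on depth, which is unknown because the lists give no read counts, so they served only for ranks within a list. Per the labels, the H3K4me2 libraries used another kit and instrument than the C/EBPα and V5 libraries.

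Overlap meant at least 1 bp, and coordinates count from 1. Genes and promoters came from RefSeq, GRCm38.p6 (21887 protein-coding genes, 21238 promoters), and all 468 genes of 24 lists matched. The counts of 1 list are not reported here. A gene end means within 1 kb of either annotated end of a gene. Python 3.11.15, numpy 2.4.6, pandas 2.3.3, scipy 1.17.1 and matplotlib 3.10.9 were used, and the tests were checked on simulated data. Tests were two-sided exact permutation tests over libraries, with Benjamini-Hochberg adjustment over 6 tests, of which 2 were added after the data were seen. Intervals on shares cover counting error only. The members and lists were chosen with earlier results of these data known. Named genes were list genes with a C/EBPα-free peak at an end, the nearest genes of the 10 widest peaks, of the 10 at gene ends and marked in all 6 lists with the highest mean H3K4me2 percentiles, of up to 5 marked in one genotype only, of the 5 widest unmarked and of 5 on each side of the overlap rule, and the 5 genes with most such peaks. Other names were chosen after their values were seen. Alternatives were other overlap rules, windows, thresholds, width strata and leaving out each list.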

Additional observations from a re-analysis of the deposited data

How the results depend on the processing

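The share of C/EBPα-free peaks with H3K4me2 was lower in KO than in WT under all 20 alternatives (no p could pass 0.05 at these numbers of libraries), from -27.0 to -5.06 points without 1 H3K4me2 list and -15.9 to -14.4 without 1 C/EBPα list. C/EBPα-free minus other changed sign with 50% of the peak covered (1.09 points), at the midpoint (1.14), within width strata (2.18), among wide ARID1A peaks (2.11) and with only the WT C/EBPα lists (1.47). It kept its sign when the set was limited to the 826 peaks with no C/EBPα peak within 1000 bp. There it was -2.35 points (higher in 1 of 6 lists, exact permutation p = 0.0625, not adjusted). The 1 to 3 list split gave 7.56, 8.71 within width strata and 7.12 without replicate 2 of both genotypes. Leaving out 1 H3K4me2 list gave -0.537 to 0.298, and 1 C/EBPα list -2.47 to 0.250. The KO minus WT difference of that contrast ran from 0.370 to 2.37 and from -0.201 to 1.64. The rank difference ran from 0.327 to 1.34 and from -0.349 to 0.926, and it reversed beyond 1 kb from C/EBPα (-1.38) and among wide peaks (-0.903). Causes were not tested. The gene end share was 9.12 to 10.1% without 1 C/EBPα list, 6.72% with 500 bp windows, 29.0% with 5000 bp, 7.84% at ends marked in all 6 lists and 7.23% at RefSeq starts. Median width was 271 to 273 bp without 1 C/EBPα list and 363 bp among wide peaks. The count marked in WT only was 11 to 88 without 1 H3K4me2 list (88 being 8.96%, beside 9.12% of all ARID1A peaks) and 11 to 18 without 1 C/EBPα list (18 being 1.53%, beside 1.34%). It was 5 with equal peak numbers (0.509%, beside 1.10%), 3 among wide peaks (0.885%, beside 1.36%) and 93 without replicate 2 of both genotypes (9.47%, beside 9.57%). The count marked in KO only was 0 to 4 without 1 H3K4me2 list (4 being 0.407%, beside 0.402% or 0.419%) and 0 without 1 C/EBPα list. It was 1 at −log10 q of at least 2 (0.102%, beside 0.0175%), 1 with equal peak numbers (0.102%, beside 0.0699%) and 5 without replicate 2 of both genotypes (0.509%, beside 0.506%). With replicate number as a block the share differed by -14.8 points (exact permutation p = 0.25, the smallest possible) and the contrast by 1.19 (p = 0.75). Over all ARID1A peaks, deviations of the KO and WT lists from their genotype mean correlated at 0.0714, 0.195 and 0.0410 for same-numbered libraries. For differently numbered ones they correlated at -0.147 to 0.0597. Each KO list correlated highest with its same-numbered WT list. The labels do not say what a number stands for, and whether it marks a shared animal or day was not tested. The lists give no depth, and a peak missing from a list is not evidence of no binding.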

Other observations

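The C/EBPα-free share of ARID1A peaks differed among chromosomes, from 13.7% on chromosome 18 to 23.1% on chromosome 11 (77 of 333, exact binomial 95% interval 18.7 to 28.0%) and 22.2% on chromosome 7 (73 of 329, 17.8 to 27.1%). No test was made over the chromosomes. In a look made after the values were seen, 3 C/EBPα-free peaks (0.305%) lay within 2 kb of a RefSeq microRNA hairpin, against 13 other ARID1A peaks (0.274%). One of them, at chr14:115042212-115042479, lay 1191 bp from Mir17 and within 2 kb of Mir18, Mir19a, Mir20a, Mir19b-1 and Mir92-1, a cluster known for promoting proliferation, and overlapped an H3K4me2 peak in all 6 lists. The peak farthest from C/EBPα was 1344420 bp away, at chr1:109369435-109369698, nearest to the cadherin gene Cdh7 and marked in KO replicate 2 only.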
